A study of Mus musculus with 4 samples.

Results

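Transcripts of Sox5, Sox6 and Sox9, 3 of the 31053 gene rows of the count matrix, were followed through the cells of a neonatal mouse tibia, from the resting cartilage to the osteoblast lineage, the stroma and the red blood cell lineage. The 3 rows were taken by gene symbol and Ensembl identifier, and no measured value entered that choice. All cells came from 1 library of droplet-based single-cell RNA sequencing (10x Genomics). Both tibiae of 1 male mouse at postnatal day 6, without the secondary ossification centres, were digested and their cells pooled into it, and its 4 sequencing entries were counted together. The mouse carried Col10a1Cre and the Rosa26-Tdtomato reporter, with Irx3 +/Δ and Irx5 +/- alleles on top, and was kept as the Irx3/5 heterozygous control. Col10a1Cre is active in hypertrophic chondrocytes (HCs), so tdTomato marks HCs and the cells that descend from them, and there is no cell here from a mouse without the Irx3 and Irx5 alleles. No other mouse was measured here, cells are not replicates, and the comparisons therefore carry counting intervals and no tests.

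SOX9, SOX5 and SOX6 are DNA-binding proteins with an HMG box, and together they are often called the chondrogenic trio. SOX9 carries an activation domain and switches on genes of cartilage matrix such as Col2a1 and Acan. SOX5 and SOX6 are close relatives that lack such a domain, bind DNA as dimers through a coiled coil and make the action of SOX9 on cartilage enhancers stronger, and loss of both leaves the growth plate severely underdeveloped. SOX6 has a further role in red blood cells, where it takes part in silencing the embryonic beta-like globin gene Hbb-y and in terminal maturation.

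The 3 genes differ greatly in size. On GRCm38, Sox5 (ENSMUSG00000041540) covers 953553 bases on the minus strand of chromosome 6, from 143828425 to 144781977, with 14 annotated transcripts, the longest of 15 exons and 7243 bases. Sox6 (ENSMUSG00000051910) covers 567925 bases on the minus strand of chromosome 7, from 115470872 to 116038796, with 16 transcripts, the longest of 16 exons and 8668 bases. Sox9 (ENSMUSG00000000567) covers 5537 bases on the plus strand of chromosome 11, from 112782224 to 112787760, with 1 transcript of 3 exons and 4135 bases. Antisense genes lie inside the 2 long loci, but they held few counts. The 5 antisense genes within Sox5 summed to 5 counts, all of Sox5os3, and the 2 within Sox6 to 65 counts, all of Sox6os, over every barcode of the matrix, and no annotated gene overlaps Sox9. The matrix counts unique molecular identifiers (UMIs), with which copies of a captured transcript are counted once, near the 3′ end, so levels are compared between cells for each gene and not between genes.

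Of 14181 barcodes, 8255 passed the limits on genes, mitochondrial and ribosomal UMIs. The median cell among them held 13957 UMIs. They formed 30 clusters, of which 7 with 1951 cells were chondrogenic, and 3 clusters with 201 cells (2.43%) kept no name. Names ending in "-like" rest on marker lists and on limits chosen with the clusters in view, and the study may have drawn its classes differently. None of the 3 Sox genes was among the genes used for clustering, but their known targets were. The stages were named from marker lists with Pthlh, Ihh and Col10a1, so the levels of these genes describe the names only. Pthlh, the signal that resting chondrocytes send out, was at 55.7 CPM (counts of a gene for every 1000000 UMIs that the whole class holds) in resting chondrocyte-like cells, and Ihh, which marks pre-hypertrophic chondrocytes (pre-HCs), reached 213 CPM in the pre-HC-like class against 3.35 CPM in resting chondrocyte-like cells. Col10a1, the collagen of HCs, stood at 11249 CPM in HC-like and 1625 CPM in pre-HC-like cells. Markers did not split the remaining chondrocyte-like cells by stage, so those 3 clusters are called by their leading genes, Ucma and F3, Prelp and Matn1, and Bnip3 and Egln1.

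Sox9 was highest in cartilage before hypertrophy. Its level was 1324 CPM (95% interval 1297 to 1351) in the 385 Ucma/F3-led chondrocyte-like cells, 1231 CPM (1215 to 1247) in the 799 Prelp/Matn1-led cells, 1077 CPM (1051 to 1104) in the 177 pre-HC-like cells and 1010 CPM (959 to 1062) in the 134 resting chondrocyte-like cells. Intervals are exact Poisson intervals and cover counting error only, not the spread between mice. Only pre-HC-like and resting chondrocyte-like cells overlapped among these neighbours in the order. Sox9 was lower in the 155 proliferating chondrocyte-like cells, at 850 CPM (824 to 878), and in the 195 cells led by Bnip3 and Egln1, at 638 CPM (616 to 661). These leading genes include targets of the response to low oxygen, such as Bnip3 and Egln1. The 106 HC-like cells held 264 CPM (247 to 281), the lowest Sox9 level of any chondrogenic class. Outside cartilage, Sox9 ranged from 196 CPM in Tnmd-led fibroblast/tendon-like cells to 10.1 CPM in early erythroid-like cells.

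Sox5 was high in most of the same cells but was already lower in pre-HC-like cells. It was at 207 CPM (196 to 218) in Ucma/F3-led cells, 204 CPM (191 to 218) in proliferating, 195 CPM (173 to 219) in resting and 184 CPM (178 to 190) in Prelp/Matn1-led chondrocyte-like cells, and each of these overlapped its neighbour in the order. The Bnip3/Egln1-led cells held 126 CPM (116 to 136) and the pre-HC-like cells 94.7 CPM (87.1 to 103). HC-like cells held 23.6 CPM (18.8 to 29.2). The next levels outside cartilage were found in Tnmd-led fibroblast/tendon-like cells at 67.0 CPM (55.8 to 79.8) and in pericyte/smooth muscle-like cells at 66.4 CPM (51.6 to 84.0), above the HC-like cells. In the other classes Sox5 lay between 12.9 CPM in mature osteoblast-like and 1.34 CPM in early erythroid-like cells.

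Sox6 had its highest level outside cartilage. It reached 330 CPM (316 to 345) in the 465 late erythroid-like cells, against 113 CPM (105 to 121) in the Ucma/F3-led cells, its highest level in a named cartilage class. Proliferating (103 CPM), Prelp/Matn1-led (102 CPM) and resting (98.6 CPM) chondrocyte-like cells could not be told apart within their intervals. Bnip3/Egln1-led cells held 80.0 CPM (72.3 to 88.3), pre-HC-like cells 74.0 CPM (67.3 to 81.2) and HC-like cells 50.03 CPM (43.0 to 57.9). The intervals of the first 2 of these overlapped, and those of pre-HC-like and HC-like cells did not. The range of Sox6 levels over the 7 chondrogenic clusters was thus narrower than that of Sox5 and Sox9. The 187 early erythroid-like cells held 43.2 CPM (38.1 to 48.8), carried mostly by 42 cells with at least 1% of their UMIs from globin genes (179 CPM), while the other 145 held 19.7 CPM. A limit of 2000 genes gave 25.2 CPM in early erythroid-like cells, and averaging over cells gave 67.3 CPM. Leukocyte-like cells held 5.44 CPM and marrow stroma-like cells 5.02 CPM, but the marrow stroma-like level was 29.7 CPM with 3000 variable genes and 12.7 CPM without likely doublets.

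**Figure D1:**
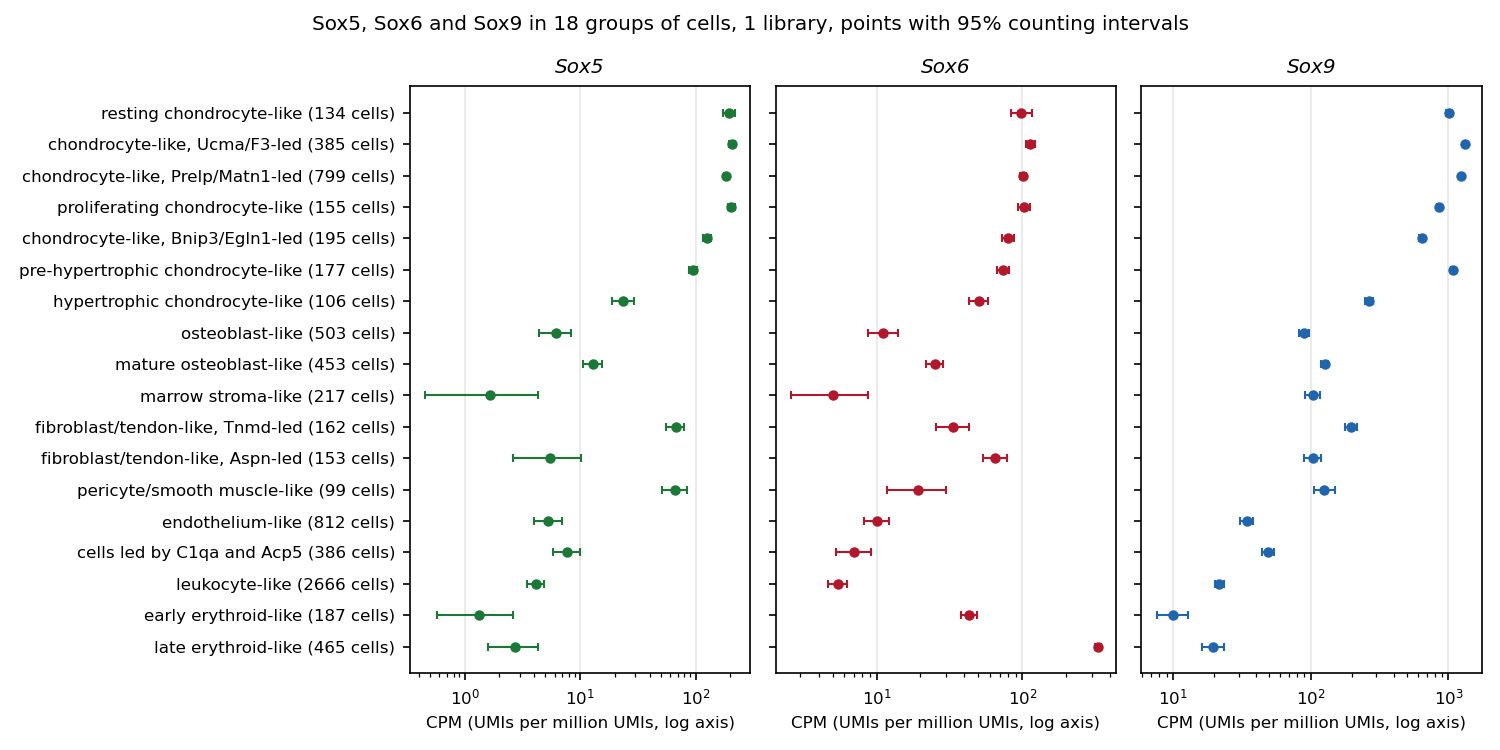
Level of Sox5, Sox6 and Sox9 (CPM, log axes that differ between panels) in 18 named classes or clusters of cells, with exact Poisson 95% intervals. Sox5 and Sox9 are highest in the chondrocyte-like cells of the upper rows, while Sox6 is highest in late erythroid-like cells at 330 CPM.

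Across the step from pre-HCs to HCs, at which the trio is known to be turned down in the growth plate, Sox5 and Sox9 differed by more than Sox6. With 1 CPM added, the log2 ratio of pre-HC-like over HC-like cells was 1.96 (1.64 to 2.28) for Sox5, 2.03 (1.93 to 2.12) for Sox9 and 0.56 (0.31 to 0.80) for Sox6. The intervals of Sox5 and Sox9 overlapped, and that of Sox6 lay apart from both. Before this step the order differed. From Prelp/Matn1-led to pre-HC-like cells the log2 ratio was 0.95 (0.82 to 1.08) for Sox5, 0.45 (0.30 to 0.60) for Sox6 and 0.19 (0.15 to 0.23) for Sox9. Sox9 was thus nearly kept where Sox5 was lower. How much lower depended on the setting. Pre-HC-like cells held 94.7 CPM of Sox5 here, but 141 CPM with 3000 variable genes, 140 CPM without likely doublets and 128 CPM at 2000 genes or more. Resting cells held 216, 195 and 177 CPM of Sox5 under these 3 settings. From resting to pre-HC-like cells the ratio was 1.04 for Sox5 and 0.41 for Sox6, while Sox9 was slightly lower in resting cells, at -0.09 (-0.17 to -0.01). That direction turned under 3 settings, with 1222 CPM of Sox9 in resting and 1069 CPM in pre-HC-like cells at 3000 variable genes, 1331 and 1205 CPM at most 5% mitochondrial UMIs, and 1052 and 1022 CPM at 2000 genes or more per cell. Pre-HC-like and HC-like cells had like depths, with medians of 34213 and 33060 UMIs per cell. At a clustering resolution of 0.6 no pre-HC-like class formed, and the class then named HC-like held 761 CPM of Sox9 and 61.3 CPM of Sox5. With 3000 variable genes the ratios of Sox5 and Sox9 no longer overlapped, at 2.57 (2.25 to 2.90) and 2.02 (1.92 to 2.12), nor did they with at least 2000 genes per cell, at 2.41 (2.10 to 2.71) and 1.96 (1.86 to 2.05).

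The same order was seen when the 1951 chondrogenic cells were grouped by their own Col10a1. Clusters chose these cells but not the borders between the groups. Sox9 was at 1152 CPM in the 1332 cells without a Col10a1 UMI, 1050 CPM in 354 cells with at most 100 CPM of Col10a1, 889 CPM in 107 cells up to 1000 CPM, 681 CPM in 101 cells up to 10000 CPM and 222 CPM (202 to 244) in 57 cells above 10000 CPM. Sox9 was thus lower in each group than in the one before, with the widest step into the cells of highest Col10a1. Sox5 went from 184 CPM through 167, 110 and 51.1 CPM to 15.3 CPM (10.3 to 21.8). Sox6 went from 102 CPM through 95.6, 65.8 and 64.3 CPM to 52.4 CPM (42.7 to 63.5), and its last 3 intervals overlapped. Between 1000 and 10000 CPM of Col10a1, Sox5 was therefore already well below its level in cells without Col10a1 while most of the Sox9 level was still present. Of the 1951 cells, 30 lay within 1.41-fold of the 10000 CPM limit. Depth differed between the groups, with medians of 20702.5, 24068.5, 25302, 33978 and 33517 UMIs per cell from lowest to highest Col10a1. Leukocyte-like cells held 25.7 CPM of Col10a1, so the first 2 groups are not read as separate stages.

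**Figure D2:**
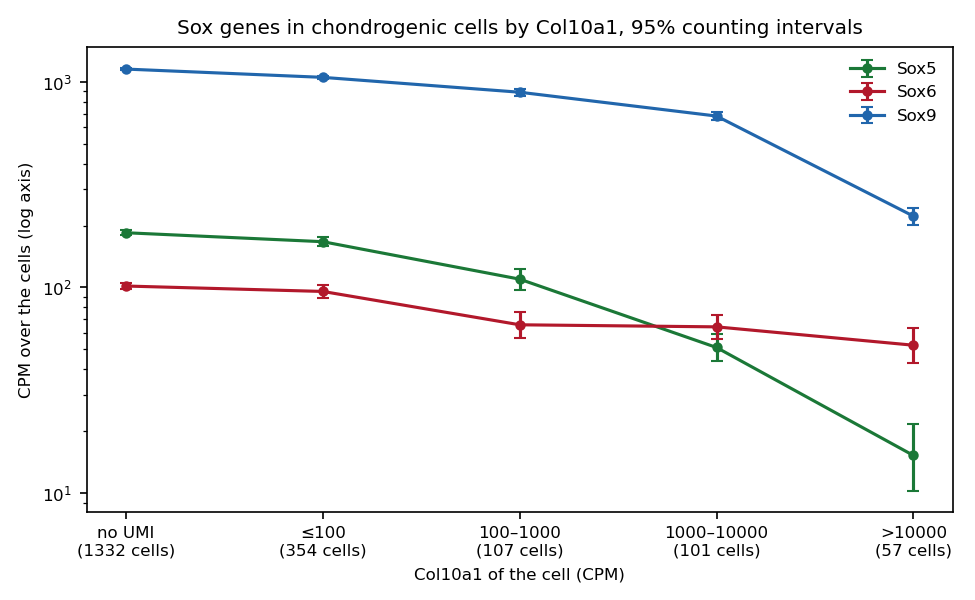
Level of Sox5, Sox6 and Sox9 (CPM, log axis) in chondrogenic cells grouped by the Col10a1 level of each cell (CPM), with exact Poisson 95% intervals. Sox5 and Sox9 are lowest in the 57 cells above 10000 CPM of Col10a1, at 15.3 and 222 CPM, and the Sox6 line is flatter.

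The balance of Sox5 and Sox6 transcripts differed between stages. For each Sox5 UMI there were 0.553 Sox6 UMIs (0.523 to 0.585) in Prelp/Matn1-led cells, 0.505 in resting, 0.503 in proliferating and 0.546 in Ucma/F3-led chondrocyte-like cells. In pre-HC-like cells the ratio was 0.782 (0.689 to 0.887), and in HC-like cells it was 2.12 (1.63 to 2.78). The ratio was 1.80 (1.21 to 2.72) in osteoblast-like and 1.95 (1.56 to 2.45) in mature osteoblast-like cells. The latter depended on the cells kept, since mature osteoblast-like cells under 500 CPM of Col2a1 held 147 Sox6 and 20 Sox5 UMIs. Endothelium-like cells stood at 1.88 (1.33 to 2.69), leukocyte-like cells at 1.33 (1.05 to 1.67) and the cluster led by C1qa and Acp5 at 0.917 (0.624 to 1.34). The osteoblast-like interval overlapped each of these, and the mature osteoblast-like interval all but the last. Sox9 UMIs per Sox5 UMI were 4.17 in proliferating, 6.70 in Prelp/Matn1-led, 11.4 in pre-HC-like and 11.2 in HC-like cells. Since each ratio sets 1 gene against another, only its difference between classes is read here.

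Within a class the genes varied from cell to cell. In Prelp/Matn1-led cells the median cell held 25 Sox9 UMIs, 4 Sox5 UMIs and 2 Sox6 UMIs, and the quartiles of Sox9 were 714 and 1612 CPM. In pre-HC-like cells the median cell held 33 Sox9 UMIs, with quartiles of 501 and 1530 CPM. Among HC-like cells the median cell held 4.5 Sox9 UMIs and no Sox5 UMI, with Sox9 quartiles of 55.4 and 374 CPM and up to 54 UMIs in a cell. In late erythroid-like cells the median cell held 4 Sox6 UMIs and no UMI of Sox5 or Sox9.

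Whether the trio was found together in a cell depends on depth, so 5000 UMIs were drawn from every cell and those with fewer were set aside. All 3 genes were then found in 27.9% of 384 Ucma/F3-led cells, 27.3% of 132 resting, 23.7% of 798 Prelp/Matn1-led and 23.2% of 155 proliferating chondrocyte-like cells. The share was 10.8% of 176 pre-HC-like cells (6.63% to 16.3%, exact Clopper-Pearson 95% limits). It was 2.83% of 106 HC-like cells (0.59% to 8.05%). Multiplying the thinned shares of the 3 single genes gave 27.3% in Ucma/F3-led, 26.2% in resting, 22.7% in Prelp/Matn1-led and 20.1% in proliferating cells. It gave 10.1% in pre-HC-like and 1.61% in HC-like cells. The joint shares thus lay close to what the single-gene shares give and are not read as a link between the genes. Without thinning the shares with all 3 genes were 82.2% of Prelp/Matn1-led, 72.9% of pre-HC-like and 22.6% of HC-like cells. The share in leukocyte-like cells, which are not known to use the trio, was 0.08% of 2440 thinned cells, with a median depth of 10827 UMIs against 22439 in Prelp/Matn1-led cells. Sox9 without Sox5 or Sox6 was the commonest pattern in pre-HC-like cells, at 44.9%, against 24.3% of Prelp/Matn1-led cells. In HC-like cells, 36.8% held Sox9 alone and 34.0% held none of the 3. Of late erythroid-like cells, 67.3% held Sox6 alone and 0.43% held all 3.

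**Figure D3:**
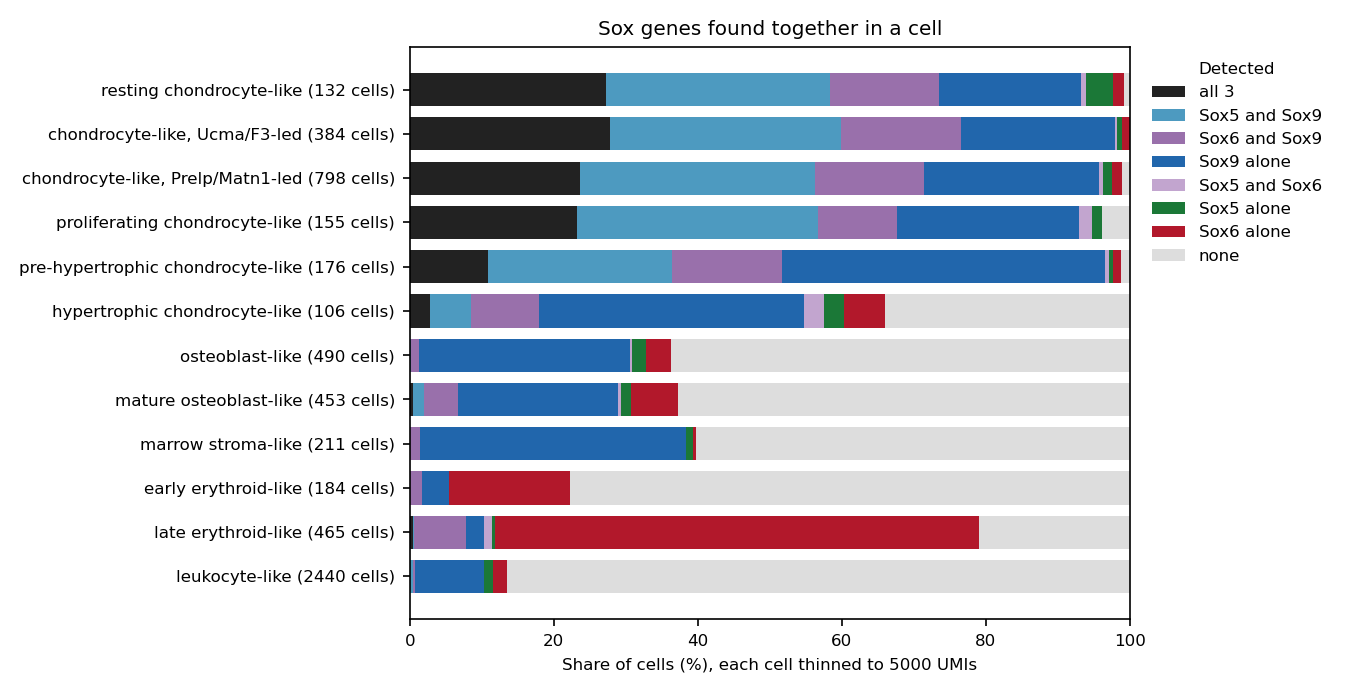
Share of cells (%) with each combination of Sox5, Sox6 and Sox9 at 5000 UMIs drawn per cell, by class, with the number of thinned cells. Cells with all 3 genes make up 27.9% of Ucma/F3-led cells and 2.83% of HC-like cells, and Sox6 alone fills most of the late erythroid-like bar.

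Cartilage genes that the trio is known to activate were then set beside it. These genes were among those used to cluster and name the cells, so their counts describe the classes. Between pre-HC-like and HC-like cells, 25.5% of 8064 genes at 10 CPM or more in either class differed at least 2-fold, 6.26% of all being higher in pre-HC-like cells. Of the 15 target genes measured, 14 were at least 2-fold higher in pre-HC-like cells and none was lower, with a median log2 ratio of 2.21 against -0.41 over all genes. The largest log2 ratios belonged to Col27a1 (3.77), a fibrillar collagen, Cnmd (3.73), which encodes chondromodulin, Matn3 (3.52) and Matn1 (2.87), both matrilins, and Col2a1 (2.56). Acan, the main cartilage proteoglycan, was the exception, with 6321 against 3999 CPM. Between resting and pre-HC-like cells, where Sox5 differed and Sox9 hardly did, 24.4% of 7743 genes differed 2-fold. Of all, 14% were higher and 10.4% lower in resting cells. Of the 15 targets, 2 were higher in resting cells (Wwp2 at 1.52 and Matn4 at 1.15 on the log2 scale) and 2 were lower (Comp at -2.03 and Hapln1 at -1.71), with a median of 0.30 against 0.00 over all genes. These counts lie near the shares over all genes and are not read as a result about the targets.

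Genes that work with or upstream of the trio were less uniform than its targets. Of all 8064 genes between pre-HC-like and HC-like cells, 6.26% were at least 2-fold higher in the former and 19.2% lower. Their median log2 ratio was -0.41. Beside that share, the few list members that were lower are not read as results. Of 9 partners and co-regulators of SOX9 measured between pre-HC-like and HC-like cells, 3 were at least 2-fold higher in pre-HC-like cells, among them the Mediator subunit Med12 (52.2 against 14.6 CPM) and the GATA-type repressor Trps1 (386 against 175 CPM), and 2 were lower, with a median log2 ratio of -0.22. Of 11 factors of hypertrophy and bone, 5 were higher and 1 was lower, with a median of 0.85, and among those at 50 CPM or more Foxa3 (2.77), Runx3 (1.67) and Mef2c (1.05), which drive hypertrophic maturation, had the largest ratios. Of 12 measured genes for signals that act on the trio, 4 were higher and 1 was lower, with a median of 0.40. Fgfr3, a receptor that restrains cartilage growth, was at 433 CPM in pre-HC-like and 93.9 CPM in HC-like cells. The receptor Pth1r was at 1583 and 708 CPM. Fgfr3, Pth1r and Ihh among the signals, and Mef2c and Sp7 among the factors, were on the marker list for pre-HC-like cells. The counts and levels of these lists thus describe the names in part. Fgfr1, the lower member among the signals at 42.9 and 239 CPM, is not read as a result.

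Against the osteoblast lineage, all 3 genes were much higher in cartilage. Over the 1951 chondrogenic and the 956 osteogenic cells, Sox5 was at 159 and 10.1 CPM, Sox6 at 93.4 and 19.4 CPM and Sox9 at 1042 and 111 CPM, with log2 ratios of 3.85 (3.64 to 4.06), 2.21 (2.05 to 2.37) and 3.22 (3.15 to 3.29). In this comparison 25.6% of 8239 genes differed 2-fold, 9.49% of all being higher in chondrogenic cells. Of the 15 cartilage targets, 15 were higher in chondrogenic cells, with a median log2 ratio of 4.67 against -0.18 over all genes, led by Col9a3 (4.83), Matn3 (4.80) and Col2a1 (4.79). Without the barcodes marked as likely doublets the Sox5 ratio was 4.70. HC-like cells still exceeded the 503 osteoblast-like cells, with log2 ratios of 1.78 (1.29 to 2.26) for Sox5, 2.07 (1.70 to 2.44) for Sox6 and 1.55 (1.40 to 1.70) for Sox9. Over all cells, the 453 mature osteoblast-like cells held more of each gene than the osteoblast-like cells, with 12.9 against 6.18 CPM of Sox5, 25.1 against 11.1 CPM of Sox6 and 126 against 89.4 CPM of Sox9. These directions depended on the cells kept. Among cells under 500 CPM of Col2a1, mature against osteoblast-like cells held 2.92 and 5.36 CPM of Sox5 and 70.1 and 79.3 CPM of Sox9, without likely doublets 4.96 and 5.57 CPM of Sox5 and 87.4 and 96.8 CPM of Sox9, and with at most 5% mitochondrial UMIs 26.3 and 28.8 CPM of Sox6.

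Low levels outside cartilage were read beside Col2a1, since every class held UMIs of this cartilage collagen. If Sox9 outside cartilage had stood to Col2a1 as it did in chondrogenic cells, leukocyte-like cells with 661 CPM of Col2a1 would hold 15.3 CPM, and they held 21.7 CPM, or 1.42 times that (1.31 to 1.52). The same quotient was 1.27 in endothelium-like, 1.12 in a cluster with macrophage and osteoclast genes in front (led by C1qa and Acp5) and 1.55 in late erythroid-like cells. It was 8.04 (7.40 to 8.73) in osteoblast-like, 7.20 (6.33 to 8.15) in marrow stroma-like and 8.95 (7.71 to 10.3) in Aspn-led fibroblast/tendon-like cells, so Sox9 there went far beyond the proportion to Col2a1. In mature osteoblast-like cells it was 2.25 (2.12 to 2.38). For Sox5 the quotient was 3.63 (2.59 to 4.95) in osteoblast-like and 1.497 (1.24 to 1.79) in mature osteoblast-like cells, beside 1.75 (1.47 to 2.07) in leukocyte-like cells.

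Each class was also restricted to cells under 500 CPM of Col2a1. Sox9 was then at 79.3 CPM in 287 osteoblast-like, 70.1 CPM in 325 mature osteoblast-like and 83.1 CPM in 94 marrow stroma-like cells, against 15.1 CPM in 1470 leukocyte-like, 19.3 CPM in 371 endothelium-like and 11.7 CPM in 288 cells led by C1qa and Acp5. Sox9 in the first 3 of these classes thus lay above the other 3 on either reading. In the 128 mature osteoblast-like cells at or above the limit, Sox9 was at 282 CPM and Sox5 at 40.5 CPM. Sox5 in mature osteoblast-like cells under the limit was at 2.92 CPM (1.78 to 4.50), beside 2.37 CPM (1.78 to 3.097) in leukocyte-like cells, and these levels could not be told apart. Osteoblast-like cells under the limit held 5.36 CPM (3.40 to 8.05) of Sox5, above the interval of leukocyte-like cells. Sox6 in mature osteoblast-like cells stayed at 21.4 CPM (18.1 to 25.2) under this limit and at 21.8 CPM in the 434 cells with under 1% of their UMIs from globin genes. In osteoblast-like cells Sox6 was at 10.4 CPM in the 499 cells with under 1% globin, against 2.31 CPM in leukocyte-like cells chosen the same way.

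**Figure D4:**
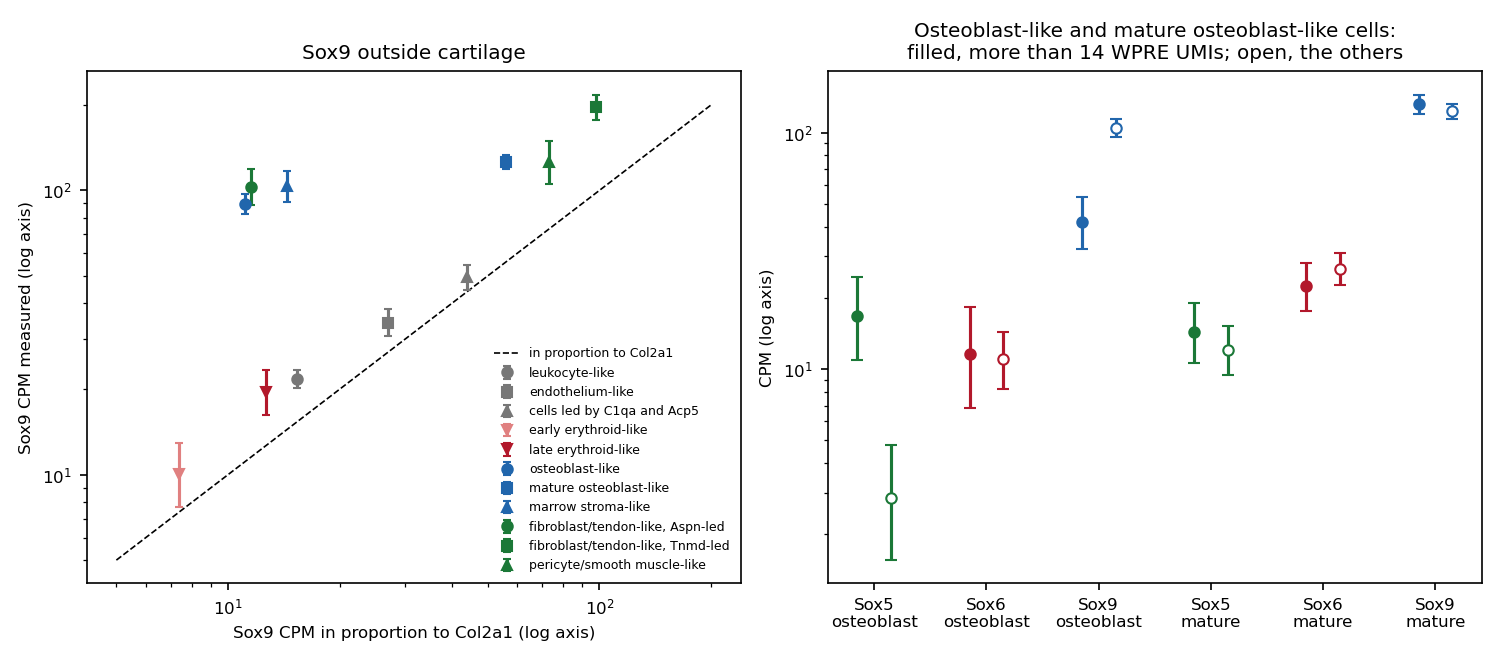
Left, Sox9 level measured outside cartilage against the level in proportion to Col2a1 (both CPM, log axes), with 95% intervals and the line of equality. Right, level of each gene (CPM, log axis) in osteoblast-like and mature osteoblast-like cells above (filled) and at or below (open) the reporter cutoff of 14 WPRE UMIs. Osteoblast-like, marrow stroma-like and Aspn-led cells lie 7.20 to 8.95 times above the line.

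The reporter was used to split osteogenic cells by likely descent from HCs. WPRE is a sequence at the end of the tdTomato transcript, and a cell with more than 14 WPRE UMIs was taken as HC-derived, following the cutoff in the study's methods. The paper does not exclude limited detection of tdTomato mRNA, so cells at or below the cutoff may include HC-derived ones. Of 106 HC-like cells 89 lay above the cutoff, and Sox9 was at 271 CPM in them and at 196 CPM (153 to 248) in the other 17. Of the 956 osteogenic cells 251 lay above it. Over these, Sox5 was at 15.1 CPM (11.9 to 18.99) against 7.88 CPM (6.31 to 9.74) in the cells at or below the cutoff, Sox6 at 19.01 against 19.5 CPM and Sox9 at 103 against 115 CPM. The Sox5 ratio was 0.86 on the log2 scale and 2.14 without the barcodes marked as likely doublets. Median depths of the osteogenic cells were 16598 UMIs above and 13549 UMIs at or below the cutoff. The Sox9 ratio of -0.15 changed sign under 4 other settings and is not read as a difference.

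The class of osteoblast-like cells differed more. In the 101 cells above the cutoff, Sox5 was at 16.7 CPM (10.9 to 24.5) from 26 UMIs, and in the 402 others at 2.85 CPM (1.56 to 4.77) from 14 UMIs, a log2 ratio of 2.21 (1.44 to 2.97). A Sox5 UMI was found in 18 of the 101 cells and in 12 of the 402, with no more than 3 UMIs in a cell and median depths of 11786 and 10858.5 UMIs. Thinned, the shares were 9% of 100 and 0.77% of 390 cells, beside 1.72% of leukocyte-like cells. Sox6 differed by less than its counting error, at 11.6 and 11.0 CPM, with an interval of -0.64 to 0.78 for the log2 ratio. Sox9 was lower in the cells above the cutoff, at 41.8 CPM (32.3 to 53.3) against 104 CPM (95.6 to 114). Among cells under 500 CPM of Col2a1, Sox5 was at 13.1 against 2.80 CPM and Sox9 at 40.2 against 92.3 CPM. In mature osteoblast-like cells, with 150 above and 303 at or below the cutoff, Sox5 was at 14.4 and 12.02 CPM, within counting error, but under the Col2a1 limit Sox5 was at 6.77 CPM (17 UMIs) against 0.69 CPM (3 UMIs). Sox6 in these mature cells was at 22.5 and 26.5 CPM, within counting error. Under the Col2a1 limit it was at 14.3 CPM (10.0 to 19.8) against 25.5 CPM (21.0 to 30.7).

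The osteoblast-like cells were not uniform, and their sub-clusters held different shares of cells above the cutoff. Leukocyte genes led 2 of them, Lyz2 and Il1b in 40 cells and Vpreb3 and Cd79a in 16 cells. The sub-cluster with the highest Sox9 level, at 149 CPM (132 to 168), had 2 of 179 cells above the cutoff, and its leading genes were globin genes and Bglap. In the other 4 sub-clusters that held cells of both kinds, Sox9 above and at or below the cutoff was at 50.7 and 92.5 CPM, 41.0 and 53.4 CPM, 36.7 and 65.1 CPM (the sub-cluster led by Lyz2), and 34.0 and 97.2 CPM. The first 3 pairs of intervals overlapped and those of the proliferating sub-cluster, led by Hmmr and Ube2c, did not. Sox5 was higher above the cutoff in 3 of these 4 sub-clusters, at 21.7 against 1.57 CPM, 27.3 against 3.14 CPM and 11.3 CPM against 0 UMIs, and at 3.06 against 6.68 CPM in the sub-cluster led by Lyz2. These values rest on 12 or fewer Sox5 UMIs each.

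Connective tissue cells that are neither cartilage nor bone split by gene. Tnmd, which encodes tenomodulin, marks tendon cells. The 162 Tnmd-led fibroblast/tendon-like cells held 67.0 CPM of Sox5 and 196 CPM of Sox9, and the 153 Aspn-led cells 5.49 and 103 CPM, log2 ratios of Aspn-led over Tnmd-led cells of -3.39 (-4.19 to -2.59) and -0.92 (-1.17 to -0.67). Among cells under 500 CPM of Col2a1, Tnmd-led cells held 37.8 CPM (26.5 to 52.4) of Sox5 and Aspn-led cells 5.20 CPM (1.91 to 11.3). Sox9 was then at 119 CPM (97.9 to 143) in Tnmd-led and 92.8 CPM (76.1 to 112) in Aspn-led cells, with intervals that overlapped. The 99 pericyte/smooth muscle-like cells, led by Rgs5 and Acta2, were close to Tnmd-led cells in Sox5. They held 66.4 CPM, 5.93 times (4.61 to 7.50) the level in proportion to Col2a1, and 56.0 CPM (39.2 to 77.5) under the Col2a1 limit, against 5.32 CPM in 812 endothelium-like cells. Their Sox9 level was 126 CPM in all cells and 49.7 CPM under the limit. Their 0.290 Sox6 UMIs per Sox5 UMI (0.167 to 0.483), from 20 Sox6 UMIs, was the lowest ratio of any named class. That interval overlapped those of Tnmd-led (0.363 to 0.682) and resting chondrocyte-like cells (0.411 to 0.618), among others. Marrow stroma-like cells, led by Cxcl12 and Adipoq, held Sox9 at 104 CPM, with 4 Sox5 and 12 Sox6 UMIs in 217 cells. These low levels were not stable, since Sox5 went from 1.67 CPM to between 1.56 and 5.59 CPM under other settings, and Sox6 up to 29.7 CPM.

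In the red blood cell lineage Sox6 was found without its partners. The log2 ratio of all 652 red blood cell-like over the 2666 leukocyte-like cells was 4.89 (4.71 to 5.08) for Sox6, and that of late over early erythroid-like cells was 2.91 (2.72 to 3.09). Sox5 and Sox9 in late erythroid-like cells, at 2.70 and 19.6 CPM, had intervals that overlapped those of leukocyte-like cells. A Sox6 UMI was found in 92.7% of late erythroid-like cells, and in 75.9% once thinned, against 18.5% of early erythroid-like and 2.25% of leukocyte-like cells thinned alike, with median depths of 12431, 31255 and 10827 UMIs. Late erythroid-like cells had 122 Sox6 UMIs per Sox5 UMI (76.1 to 210).

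When the red blood cell-like cells were clustered again into 8 sub-clusters and ordered by the share of their UMIs from 4 globin genes, Sox6 was at 32.0 CPM at 0.47% globin, 44.2 CPM at 4.43%, 264 CPM at 13.98%, 349 CPM at 18.5%, 212 CPM at 24.4%, 189 CPM at 30.7%, 456 CPM at 41.6% and 488 CPM at 54.0%. The first 2 sub-clusters were thus well below all others, and the order among the rest was not even. Genes of other blood cells were among the leading genes of 2 sub-clusters. These were Pf4 and S100a9 in the 60 cells at 4.43% globin, and Ighm and Vpreb3 in the 27 cells at 24.4%. Globin UMIs take up room in the total, and as CPM of the UMIs outside globin Sox6 went from 32.2 in the first sub-cluster to 1060 in the last. Gata1, the master factor of the lineage, lay between 44.8 and 126 CPM in every sub-cluster, whereas Bcl11a, another factor that silences embryonic globin, was at 161 CPM in the first and 1.45 CPM in the last.

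**Figure D5:**
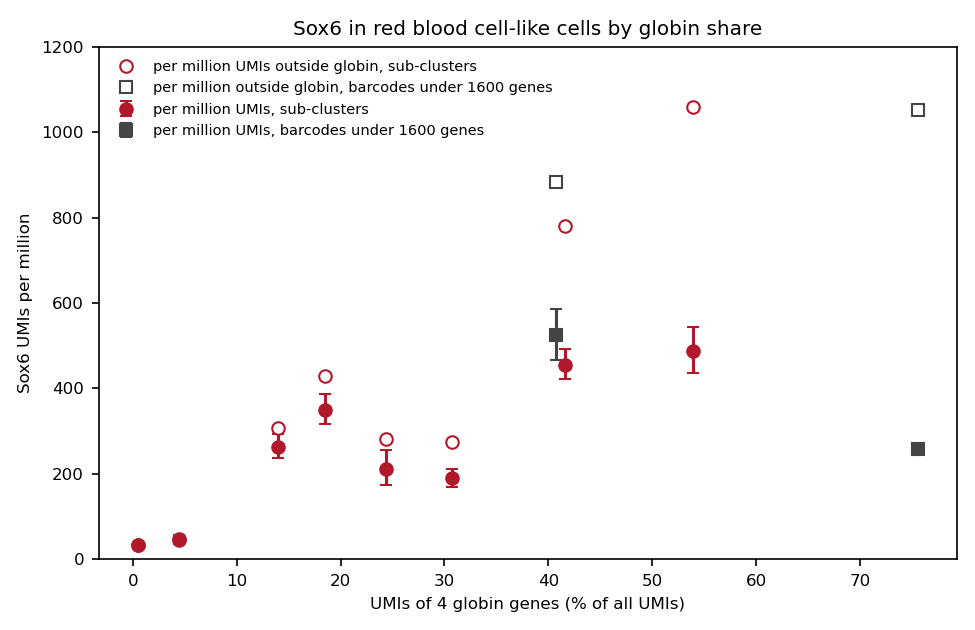
Sox6 in CPM of all UMIs (filled, with 95% intervals) and of the UMIs outside globin genes (open) against the share of UMIs from 4 globin genes (%) in 8 sub-clusters of red blood cell-like cells (circles) and in barcodes with fewer than 1600 genes (squares). The barcodes shown as squares held at most 10% mitochondrial UMIs. The 2 sub-clusters with the least globin hold 32.0 and 44.2 CPM of all UMIs, and the 2 with the most hold 456 and 488.

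Between late erythroid-like and leukocyte-like cells, 55.4% of 7962 genes differed 2-fold. Of all, 10.6% were higher and 44.8% lower in late erythroid-like cells. Of 15 erythroid partners and globins measured, 11 were higher and 3 lower, with a median log2 ratio of 4.52 against -0.81 over all genes. The largest ratios were those of Klf1 (6.14), an activator of adult beta globin, Hbb-bt (5.37), Gfi1b (5.25), Hba-a1 (5.23) and Gata1 (5.22). Klf1, Gata1, Hba-a1, Hba-a2, Hbb-bt and Hbb-bs were on the marker lists that named the erythroid-like classes. The count and ratios of the higher members thus describe the names in part. Myb (-5.21) and Bcl11a (-1.23) were among the lower members, which are not read as results beside the share of all genes that were lower. Of 14 cartilage targets of the trio, 0 passed 2-fold in either direction, with a median of -0.21. Both classes lie outside cartilage, with Col2a1 at 544 and 661 CPM, against 44912 CPM in chondrogenic cells. This count is not read as a result about Sox6 or the targets.

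Hbb-y, the embryonic globin gene that SOX6 is known to silence, was at 3.82 CPM in late erythroid-like cells, and the adult gene Hbb-bs at 169116 CPM. Hbb-y was picked with its values known. The bases before the starts of both genes are printed here (RefSeq, GRCm38.p6, 250 bases upstream, minus strand of chromosome 7) because they differ in the letters that SOX proteins bind. Capitals mark ACAAT and ACAAAG, searched on both strands, which share their opening letters but not a position in these windows. Of 32851 promoters of this length 27.7% hold ACAAT, 16.5% hold ACAAAG and 5.31% hold both.
Hbb-y, chr7:103853208-103853457: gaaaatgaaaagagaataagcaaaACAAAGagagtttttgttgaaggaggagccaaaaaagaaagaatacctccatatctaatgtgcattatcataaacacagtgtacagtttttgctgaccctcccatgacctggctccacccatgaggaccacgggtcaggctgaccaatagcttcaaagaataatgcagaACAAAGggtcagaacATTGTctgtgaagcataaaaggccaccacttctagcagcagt
Hbb-bs, chr7:103827929-103828178: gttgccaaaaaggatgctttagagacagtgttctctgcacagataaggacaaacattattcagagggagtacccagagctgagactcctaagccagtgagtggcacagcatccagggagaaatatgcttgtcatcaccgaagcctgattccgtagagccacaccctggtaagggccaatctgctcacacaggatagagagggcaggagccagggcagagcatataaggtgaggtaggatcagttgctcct
Hbb-y holds ACAAAG at 226 to 221 and at 57 to 52 bases before its start and ACAAT on the opposite strand at 42 to 38 bases before it, and Hbb-bs holds neither. A match in these letters is a description and not a binding site. The windows stand before RefSeq starts. In GENCODE M21 the genes reach 103853216 (Hbb-y) and 103828096 (Hbb-bs), so part of each window lies inside the gene as annotated there.

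Among cartilage targets such matches were rare next to the start. Of 14 promoters of 12 target genes, 1 (7.14%) held ACAAT and 0 held ACAAAG, and no match says only that these letters are not in this window. The promoter with a match was that of Hapln1, which encodes the link protein of the aggrecan network (71857 bases of gene in GENCODE M21, chromosome 13, plus strand), with ACAAT at 249 to 245 bases before the RefSeq start. GENCODE M21 starts this gene at 89539796, so the window lies inside the gene as annotated there.
Hapln1, chr13:89540386-89540635: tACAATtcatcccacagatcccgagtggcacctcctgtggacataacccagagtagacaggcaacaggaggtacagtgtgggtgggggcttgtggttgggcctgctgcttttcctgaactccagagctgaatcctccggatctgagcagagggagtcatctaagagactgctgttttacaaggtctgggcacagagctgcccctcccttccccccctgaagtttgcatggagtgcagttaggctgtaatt
The table of promoters gave 6 starts for Sox6, of which 3 held ACAAT and 5 held ACAAAG, and 1 start for Sox5, which held ACAAT only.

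Sox6 was also seen in cells of other kinds that held globin UMIs. In leukocyte-like cells it was at 2.31 CPM (1.81 to 2.90) in the 2593 cells with under 1% globin and at 83.9 CPM (68.7 to 101) in the 73 with more. In Aspn-led fibroblast/tendon-like cells it was at 23.9 CPM in 116 cells and 133 CPM in 37, and in endothelium-like cells at 6.30 CPM in 780 and 69.2 CPM in 32. In HC-like and pre-HC-like cells with under 1% globin, Sox6 was at 50.8 and 70.9 CPM, close to the levels of all cells. In leukocyte-like, Aspn-led and endothelium-like cells Sox6 thus moved with globin UMIs, whose part in these levels was not tested.

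Genes whose pattern was most like that of each Sox gene were taken by the Pearson correlation of log2(CPM + 1) over the 30 clusters of this library, among 12735 genes, as a description. For Sox5 they were Epyc (0.969), Mia (0.967), Cnmd (0.966), Matn3 (0.965) and Scrg1 (0.964), with Sox9 at rank 35 (0.911) and Sox6 at rank 706 (0.652). For Sox9 they were Col27a1 (0.980), Slc35e3 (0.972), Col11a1 (0.970), Plod2 (0.958) and Matn4 (0.956), with Sox5 at rank 71 and Sox6 at rank 1140. Sox6, with peaks in cartilage and red blood cells, had no gene above 0.825, and the nearest were Tmem56 (0.825), Cdr2 (0.811), 1810058I24Rik (0.810), Ppm1l (0.808) and Tmem230 (0.806). Clusters share the library and its background, and similar clusters are not independent points.

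Of 19 Sox genes in the matrix, 11 reached 10 CPM in a named class. Besides Sox5 and Sox9, only Sox8, a close relative of Sox9, was highest in a cartilage class among these 11, at 48.1 CPM (41.9 to 54.9) in proliferating chondrocyte-like cells and 5.34 CPM in HC-like cells. Sox4 (559 CPM), Sox7 (220 CPM), Sox11 (205 CPM), Sox17 (119 CPM), Sox18 (94.4 CPM) and Sox13 (16.6 CPM), which belongs to the same subgroup as Sox5 and Sox6, were highest in endothelium-like cells. Sox12 was highest in osteoblast-like cells at 37.5 CPM. Sox4 was at 22.4 CPM in Prelp/Matn1-led, 66.2 CPM in pre-HC-like, 166 CPM in HC-like and 277 CPM in osteoblast-like cells, the reverse of the order of Sox9 over the same 4 classes. Sox11, which was at 150 CPM in resting and 108 CPM in proliferating chondrocyte-like cells, was at 25.5 CPM in pre-HC-like and 2.81 CPM in HC-like cells.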

How the data were processed

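The authors deposited UMI counts per gene and barcode, without normalization, made per the submitters' processing notes with Cell Ranger 3.1.0 on mm10, and Seurat 3 is also named there. Counts of tdTomato and WPRE came from a second deposited count matrix of 98 exogenous sequences, joined by barcode. Coordinates of genes are from GENCODE M21 (GRCm38), and those of promoter windows rest on RefSeq starts, which can differ.

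Cells with at least 1600 genes (the study's limit), at most 10% mitochondrial and at most 50% ribosomal protein UMIs were kept. With scanpy 1.11.5 and Python 3.11.15, counts were scaled to 10000, and 2000 variable genes without the trio, 30 components, 20 neighbours and Leiden resolution 1 were used. Clusters took the marker list with most genes among their top 10. Scrublet marked 588 of 14181 barcodes (4.15%) as doublets. The 460 of them among the cells that passed the limits (5.57% of these cells) were kept. Levels are summed UMIs as CPM, shares were compared at 5000 UMIs per cell, and ratios add 1 CPM. The ratio and interval code was tested on simulated data. With 1 library there was no test.

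Named genes are the trio, other Sox genes at 10 CPM or more in a class, the 5 genes most like each, and per list and direction up to 5 genes with the largest ratios at 50 CPM or more. The members and lists were chosen with earlier results of these data known. Alternatives covered clustering resolution, variable genes, cell limits, doublets, averaging, the added CPM and the reporter cutoff. Of the 3 clusters without a name, 1 is not reported here.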

Additional observations from a re-analysis of the deposited data

Results flagged for a closer look

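Barcodes with fewer than 1600 genes entered none of the comparisons, and Sox6 was found in them at levels above that of leukocyte-like cells (5.44 CPM). The barcodes described here held at most 10% mitochondrial UMIs, and the rest of those under 1600 genes were left out. In the 1109 such barcodes with at least 50% of their UMIs from globin genes, Sox6 was at 257 CPM (246 to 268), or 1053 CPM of the UMIs outside globin, with Sox5 at 3.28 CPM and Sox9 at 28.9 CPM. In the 170 barcodes with 10 to 50% globin it was at 524 CPM (466 to 587), or 885 CPM of the UMIs outside globin. In the 1819 barcodes with under 10% globin it was at 14.7 CPM, with Sox9 at 124 CPM. The minimum of 1600 genes thus left out globin-rich barcodes that hold Sox6.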

How the results depend on the processing

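No paired analysis was possible because the series holds 1 library, and for the same reason no replicate could be left out. Of 100 log2 ratios recomputed under other settings, 64 stayed within counting error of the reported value, 32 moved beyond it and 4 changed sign. At resolution 0.6, chondrogenic over osteogenic was 1.99 for Sox6 and 3.06 for Sox9, Sox6 in red blood cell-like over leukocyte-like cells was 5.67, and the pre-HC-like over HC-like ratios gave no value, since no pre-HC-like class formed. With 3000 variable genes the Sox5 ratio of pre-HC-like over HC-like cells was 2.57, Sox9 in chondrogenic over osteogenic cells 3.14, and the Sox9 ratio across the reporter cutoff changed sign to 0.12. With at most 5% mitochondrial UMIs, chondrogenic over osteogenic was 3.44, 1.75 and 2.84 for Sox5, Sox6 and Sox9, red blood cell-like over leukocyte-like 4.68 for Sox6, pre-HC-like over HC-like 2.27 for Sox9, and the Sox9 reporter ratio 0.36. With at least 2000 genes per cell the values were 2.41 for Sox5 in pre-HC-like over HC-like, 1.87 for Sox6 in chondrogenic over osteogenic, 5.17 for Sox6 in red blood cell-like over leukocyte-like cells and 0.0194 for the Sox9 reporter ratio. Without the barcodes that Scrublet marked, chondrogenic over osteogenic was 4.70 for Sox5 and 3.51 for Sox9, pre-HC-like over HC-like 2.52 and 2.19 for these genes, the Sox5 reporter ratio 2.14 and Sox6 in red blood cell-like over leukocyte-like cells 5.53. As a mean over cells, chondrogenic over osteogenic was 4.35, 2.50 and 3.35 for Sox5, Sox6 and Sox9, the reporter ratio 1.33 for Sox5 and -0.49 for Sox9, and red blood cell-like over leukocyte-like 5.38 for Sox6. With 0.1 CPM added this last ratio was 5.10, and with at least 1 tdTomato UMI in place of the cutoff the Sox9 reporter ratio was 0.13. Settings chosen after seeing the data were osteogenic cells under 500 CPM of Col2a1, with 5.04 and 3.80 for Sox5 and Sox9 in chondrogenic over osteogenic cells and reporter ratios of 1.90, -0.48 and -0.52 for Sox5, Sox6 and Sox9, and leukocyte-like cells under 1% globin, with 5.86 for Sox6. The causes of these shifts were not tested. Of 219 class levels recomputed, 27 moved by over 1.5 times, most of them in small or low classes, such as Sox5 in mature osteoblast-like cells at 4.96 CPM without Scrublet-marked barcodes.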

Other observations

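Of the 3 clusters without a name, 2 are described here, and both held all 3 genes. A cluster of 83 cells led by Hba-a2 had 12.5% of its UMIs from globin genes and 34158.5 CPM of Col2a1, with 157 CPM of Sox6, 136 CPM of Sox5 and 886 CPM of Sox9. A cluster of 104 cells led by Retnlg, a neutrophil gene, had 32585 CPM of Col2a1, 114 CPM of Sox5, 72.1 CPM of Sox6 and 775 CPM of Sox9.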
